A study of Mus musculus with 5 samples.

Results

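Most CpG-dense DNA of these cells was unmethylated, and the 382 tiles described here were the exception. They were selected on their measured density and methylation level. Autosomes were divided into tiles of 1000 bases, a tile counted as CpG-dense when at least 30 of its CpG positions were listed in any library, and a tile was tested when at least 3 of its positions had 10 or more reads in all 5 libraries. Of 24319 tested tiles 11229 were CpG-dense, and the 382 of these (3.40%) whose level was 20% or more were kept. The level is the percent of methylated among all methylated and unmethylated reads of the shared positions, averaged first within each genotype and then over both genotypes. The levels themselves therefore chose the tiles, and they are given as a description without a test.

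DNA came from bone marrow cells sorted as lineage-negative, Sca1-positive and Kit-positive (LSK), the compartment of blood stem cells and early progenitors. A first group of 3 libraries was from Idh1-R132H Knock-in mice, and 2 libraries were from Wild-type mice, all on a mixed 129Ola x C57Bl/6J background. The labels give no age or sex of the mice, no driver or induction of the knock-in allele, and no statement that each library came from its own animal, which leaves p-values to describe no more than the spread among these 5 libraries. Methylation was read by extended reduced representation bisulfite sequencing, in which DNA is cut at CCGG sites and bisulfite leaves only methylated cytosines to be read as C. The sort was not checked against Kit or Ly6a (the gene of Sca1), since no tile placed at either promoter was tested.

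DNA methylation in mammals is laid down at CpG dinucleotides by the DNMT enzymes, and the TET enzymes oxidise it. CpG-dense DNA (CpG islands) usually escapes it, above all at promoters of genes used in every cell. Known exceptions are promoters of germline genes, which are methylated in somatic cells, imprinted control regions, which carry methylation on the copy from 1 parent, the inactive X chromosome, and many islands inside genes. Mutant IDH1 makes 2-hydroxyglutarate, which can inhibit TET enzymes. An intermediate level in a bulk library can come from methylation of 1 of the copies in each cell or of every copy in some of the cells, and these cannot be told apart here.

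The libraries differed in depth. Over the 382 tiles the median number of reads per tile was 432, 186.5 and 834.5 for knock-in replicates 1 to 3, against 134 and 238 for the wild-type replicates. The 95% Wilson interval of a tile's level had a median width to each side of 2.95, 4.10 and 2.14 percentage points in knock-in cells and of 5.25 and 4.27 points in wild-type cells, which covers counting error only. Knock-in replicate 2 and wild-type replicate 1, the shallowest library of each genotype, also stood apart on chromosome X, where 159 CpG-dense tiles averaged 24.1% in each of them and between 2.94% and 3.82% in the other 3 libraries. These libraries were also the most frequent extremes among the 382 tiles: knock-in replicate 2 was the highest library in 146 tiles and wild-type replicate 1 the lowest in 119. Values within the pair that was high on chromosome X and within the other 3 libraries are given beside the results.

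Promoter sequences show what the tiles hold. No genome of the build of the files (mm9) was given, so RefSeq promoter sequences of the GRCm38.p6 build (250 bases before to 50 after a gene's start) were placed on the listed positions by the spacing of their CpGs. Of 32851 promoters 11845, of 10397 gene symbols, found a single place, and 64 genes had one overlapping at least 1 of the 382 tiles. The following 4 are printed 5′ to 3′ in the direction of the gene, because they stand for the kinds of promoter met below: fully methylated (Hormad1), intermediate (Boll), imprinted (Igf2r) and unmethylated beside a methylated tile (Yrdc). Capitals mark the CpGs with at least 1 position shared by all 5 libraries. In GRCm38.p6 the sequences lie at chr3:95559427-95559726 on the plus strand, chr1:55362679-55362978 on the minus strand, chr17:12769657-12769956 on the minus strand and chr4:124850509-124850808 on the plus strand.
Hormad1: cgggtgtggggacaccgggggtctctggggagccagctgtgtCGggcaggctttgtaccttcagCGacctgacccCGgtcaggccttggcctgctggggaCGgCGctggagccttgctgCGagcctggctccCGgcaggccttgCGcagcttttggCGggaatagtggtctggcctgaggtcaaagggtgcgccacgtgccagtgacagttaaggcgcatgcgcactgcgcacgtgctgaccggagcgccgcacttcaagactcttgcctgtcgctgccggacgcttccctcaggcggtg
Boll: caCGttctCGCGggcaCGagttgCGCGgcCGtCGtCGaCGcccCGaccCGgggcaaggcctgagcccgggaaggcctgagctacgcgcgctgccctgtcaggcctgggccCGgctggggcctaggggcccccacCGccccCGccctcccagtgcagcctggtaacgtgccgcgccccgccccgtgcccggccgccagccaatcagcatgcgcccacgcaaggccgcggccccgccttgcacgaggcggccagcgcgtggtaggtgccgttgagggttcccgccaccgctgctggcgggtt
Igf2r: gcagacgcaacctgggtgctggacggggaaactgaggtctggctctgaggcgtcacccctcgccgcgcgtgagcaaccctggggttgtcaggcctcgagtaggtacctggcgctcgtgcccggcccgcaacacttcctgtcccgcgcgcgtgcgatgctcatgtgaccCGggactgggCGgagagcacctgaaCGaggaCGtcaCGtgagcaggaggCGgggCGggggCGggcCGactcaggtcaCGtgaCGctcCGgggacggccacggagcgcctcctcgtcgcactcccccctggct
Yrdc: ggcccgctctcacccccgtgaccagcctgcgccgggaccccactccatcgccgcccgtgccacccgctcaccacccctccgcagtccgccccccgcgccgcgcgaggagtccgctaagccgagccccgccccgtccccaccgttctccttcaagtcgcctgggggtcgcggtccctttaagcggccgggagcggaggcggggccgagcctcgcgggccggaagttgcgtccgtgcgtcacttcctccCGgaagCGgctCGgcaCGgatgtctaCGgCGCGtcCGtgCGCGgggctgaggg

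In Hormad1, which encodes a protein of the meiotic chromosome axis, the 10 shared positions of the sequence above were at 98.0%, 92.3% and 93.8% in knock-in cells and at 89.4% and 91.0% in wild-type cells. In Boll, which encodes an RNA-binding protein of male meiosis, the 15 shared positions were at 56.3%, 53.6% and 50.7% in knock-in cells and at 60.1% and 53.4% in wild-type cells. Single positions of Boll ran from 24.2% to 78.6%, so none of them was empty or full. Igf2r, the receptor that clears insulin-like growth factor 2, had 12 shared positions at 21.6%, 48.0% and 29.6% in knock-in cells and at 41.8% and 36.0% in wild-type cells. Its promoter is known to be methylated on the silent paternal copy. In Yrdc, a gene of tRNA modification, the 14 shared positions were at 0.09%, 0.00% and 0.06% in knock-in cells and at 0.00% in both wild-type libraries. They lay outside the methylated tile that the same sequence overlaps (chr4:124527000-124527999), whose 3 shared positions were at 40.5%, 46.8% and 64.1% in knock-in cells and at 43.3% and 59.3% in wild-type cells. A tile above 20% that overlaps a promoter is thus not always a methylated promoter. Of the 64 genes, 27 had at least 3 shared positions inside the promoter sequence, and that sequence was at 20% or more in 20 of them and under 5% in 6. In knock-in replicate 3 alone, 60 genes had at least 5 listed positions there. The sequence was at 20% or more in 34 of the 60 and under 5% in 15.

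The levels of CpG-dense tiles had 2 ends. Of all 11229, 10692 were under 10% and 154 were at 90 to 100%, with between 22 and 155 in each step of 10 points in between. In classes of 20 points, 91 of the 382 tiles were at 20 to 40%, 51 at 40 to 60%, 47 at 60 to 80% and 193 at 80 to 100%. Just inside the limit were tiles at 20.09% (chr5:139297000-139297999), 20.11% (chr12:88223000-88223999) and 20.14% (chr14:62305000-62305999), and just outside it tiles at 19.98% (chr6:124695000-124695999), 19.97% (chr17:43766000-43766999) and 19.92% (chr19:5052000-5052999). All tile positions are in mm9.

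**Figure D1:**
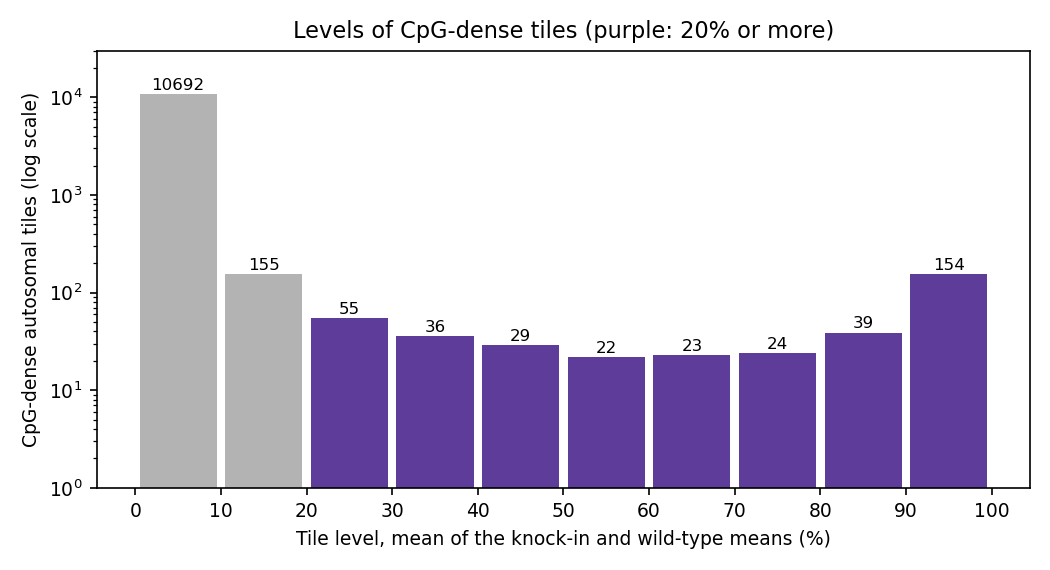
Number of CpG-dense autosomal tiles (log scale) in steps of 10 percentage points of the tile level, the mean of the knock-in and wild-type means; purple bars are the 382 tiles at 20% or more. Of 11229 tiles, 10692 lie under 10% and 154 at 90% or more.

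The share of methylated tiles was lower at each step up in density. Tiles of 30 to 39 listed positions were at 20% or more in 207 of 2350 cases (8.81%), tiles of 40 to 49 in 74 of 1971 (3.75%), tiles of 50 to 69 in 64 of 3002 (2.13%) and tiles of 70 or more in 37 of 3906 (0.947%). The median level of the methylated tiles in the same classes was 89.2%, 77.6%, 60.5% and 44.0%, which also falls with density. By chromosome the share of dense tiles at 20% or more ran from 0.86% of 347 on chromosome 16 to 6.78% of 752 on chromosome 7.

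Most of the 382 tiles lay away from placed promoters. A placed promoter overlapped 58 of the 382 (15.2%), a further 167 (43.7%) lay within the length of a placed gene, and 157 (41.1%) lay elsewhere. Among the 10847 unmethylated dense tiles the shares were 53.7%, 14.4% and 32.0%. Seen from the place, 58 of 5879 dense promoter tiles (0.987%) were at 20% or more, against 167 of 1725 (9.68%) within genes and 157 of 3625 (4.33%) elsewhere. Genes whose promoters were not placed count as elsewhere, so these shares describe the placed genes.

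The promoters at the methylated tiles had a slightly lower median CpG content. The 70 promoter sequences at the 382 tiles had a median of 24 CpGs and 65% G and C, with 0.753 of the CpGs that their base composition would give, against 28 CpGs, 67% and 0.864 in 7096 promoters at unmethylated dense tiles. All 32851 promoters of the table had a median of 7 CpGs. Short motifs were searched on both strands, and none of them contains another. TGCCGC, the core bound by the imprint-keeping protein ZFP57, was in 10 of 70 sequences (14.3%), in 26.1% of the unmethylated set and in 11.6% of all promoters. The E-box CACGTG was in 13 of 70 (18.6%), against 10.8% and 7.15%. TCCCGC, the core of the E2F6 site of germline promoters, was in 33 of 70 (47.1%), against 46.3% and 20.0%. A match describes letters and not a bound site.

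Levels were then read position by position, 3552 shared positions in all. In tiles at 80 to 100%, 93.7% of 1670 positions were themselves at 80% or more. In tiles at 40 to 60%, 87.1% of 511 positions were between 20% and 80%, and every position was in that range in 26 of the 51 tiles. A mixture of empty and full positions, some under 20% and some at 80% or more, was found in 14 of the 51. Tiles at 20 to 40% were more mixed, with 40.8% of 957 positions under 20%. Of the 91 tiles in that class 26 adjoined a dense tile under 20%, against 4 of the 193 at 80 to 100%. Where a CpG was read on both strands in every library (249 CpGs in 108 tiles), the strands differed by a median of 6.00 to 10.2 points within a library.

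**Figure D2:**
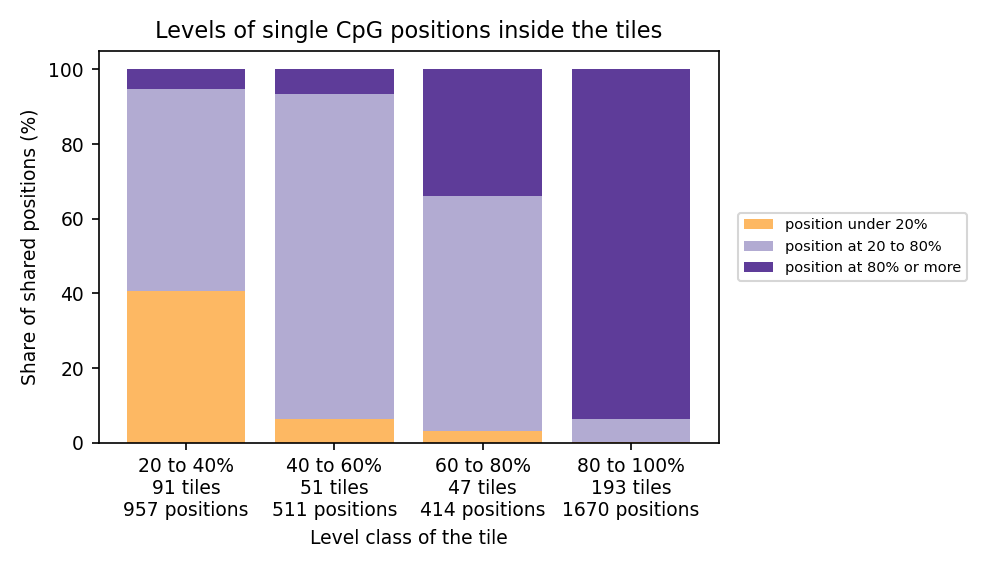
Share of shared CpG positions under 20%, at 20 to 80% and at 80% or more inside tiles of each level class, as a mean of both genotypes. In tiles at 40 to 60% most positions are themselves intermediate (87.1%), while tiles at 80 to 100% consist almost entirely of positions at 80% or more (93.7%).

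Germline promoters formed the clearest named group at the top. A list of 40 germline genes had 21 with a placed promoter, 8 of these overlapped a CpG-dense tested tile, and in 7 of the 8 that tile was at 20% or more. Ddx4, the germ cell RNA helicase, had 99.1%, 99.1% and 96.1% in knock-in cells and 100% and 96.8% in wild-type cells. Sohlh2, a transcription factor of early germ cells, had 95.2%, 100% and 95.9% in knock-in cells and 97.4% and 94.2% in wild-type cells. In both the genotypes overlapped. Sycp1, a filament protein of the synaptonemal complex, had 90.8%, 100% and 93.4% in knock-in cells and 88.8% and 91.7% in wild-type cells. Sycp3, which belongs to the same meiotic structure, had 95%, 78.2% and 89.4% in knock-in cells and 77.0% and 88.4% in wild-type cells. Mael, a gene of the piRNA pathway that silences transposons in germ cells, had 81.6%, 94.4% and 93.8% in knock-in cells and 100% and 86.7% in wild-type cells. The genotypes again overlapped in all 3. Hormad1 was at 92.3% to 98.0% in knock-in cells and 89.4% to 91.0% in wild-type cells without overlap, on 142 to 1049 reads per library. Its difference of 4.48 points had an unadjusted edgeR p of 0.496. Boll alone of the 7 was at an intermediate level. The tile at Dazl, the close relative of Boll, was at 9.5% and so fell outside. Within Meioc, a meiosis gene, a further tile was at 50.6%, 65.6% and 59.8% in knock-in cells and 43.0% and 61.9% in wild-type cells.

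Other testis genes outside that list stood among the methylated promoters and are named here after their values were seen, except Rbmxl2. Rbmxl2, a testis RNA-binding protein, had the most shared positions (31) of the tiles at 20 to 40%, with 39.8%, 33.1% and 35.5% in knock-in cells and 35.9% and 32.0% in wild-type cells. Dmrtb1, a transcription factor of spermatogonia, had 20 shared positions at 92.8%, 95.3% and 88.7% in knock-in cells and 88.3% and 90.3% in wild-type cells. Papolb, the testis poly(A) polymerase, had 8 at 53.0%, 70.1% and 42.1% in knock-in cells and 39.2% and 34.6% in wild-type cells.

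Imprinted genes were found at intermediate levels. Of 33 genes in domains with a mark on the maternal copy, 11 had a placed promoter, 5 of these overlapped a dense tested tile, and 4 of the 5 tiles were at 20% or more. At Plagl1 and Hymai, a growth-restraining zinc finger gene and the noncoding RNA it shares a start with, the tile had 37 shared positions at 38.8%, 44.9% and 37.4% in knock-in cells and 54.9% and 39.1% in wild-type cells. Every 1 of the 37 lay between 30.3% and 68.7%. At Zrsr1, a splicing factor gene inside Commd1, the tile had 63.8%, 70.8% and 29.3% in knock-in cells and 21.6% and 25.6% in wild-type cells. That tile rested on 3 shared positions and 37 to 373 reads. Over the positions of the same tile that were not shared, the order of the means was turned round and the genotypes overlapped. These positions were at 46.3%, 28.9% and 43.9% in knock-in cells and 53.6% (8 positions) and 35.7% in wild-type cells. Igf2r was at 36.0% over both genotypes, as given above with its sequence.

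Gnas, which encodes the stimulatory G protein alpha subunit and has several imprinted promoters, held 4 of the tiles. The tile at chr2:174153000-174153999, which overlaps a placed promoter, was at 60.2%, 88.5% and 50.4% in knock-in cells and 71.8% and 38.9% in wild-type cells. Its shared positions lay outside the promoter sequence. Only knock-in replicate 1 had listed positions in that sequence, 7 of them at 0%, so this tile does not show a methylated promoter. At lower coordinates, an adjoining pair at chr2:174124000-174125999 was at 51.9%, 35.8% and 43.3% in knock-in cells and 54.5% and 48.2% in wild-type cells in its first tile, and at 34.5%, 45.8% and 32.6% in knock-in cells and 53.5% and 43.3% in wild-type cells in the second. The genotypes overlapped at each of these. The fourth, at chr2:174110000-174110999, ranged from 8.33% to 47.7% over the libraries. Within Grb10, an adaptor of growth factor receptors, a tile was at 52.2%, 61.9% and 24.3% in knock-in cells and 20.8% and 40.0% in wild-type cells, whereas the placed promoter of Grb10 was at 0.50%.

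The remaining lists gave no methylated promoter. Of 7 genes in domains with a mark on the paternal copy 2 had a dense tested promoter tile, at 3.16% (Igf2) and 4.16% (Zdbf2). Of 19 regulators of blood formation 5 had one, and the highest level among their promoter tiles was 2.32%, at Gata2. A tile within Gata2, a transcription factor that blood stem cells need, was at 44.4%, 29.3% and 22.4% in knock-in cells and 37.1% and 21.1% in wild-type cells. Of 10 genes that write, erase or feed into methylation 7 had one, and the highest level was 1.24%, at Tet3. No tile of any list passed the test between genotypes.

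**Figure D3:**
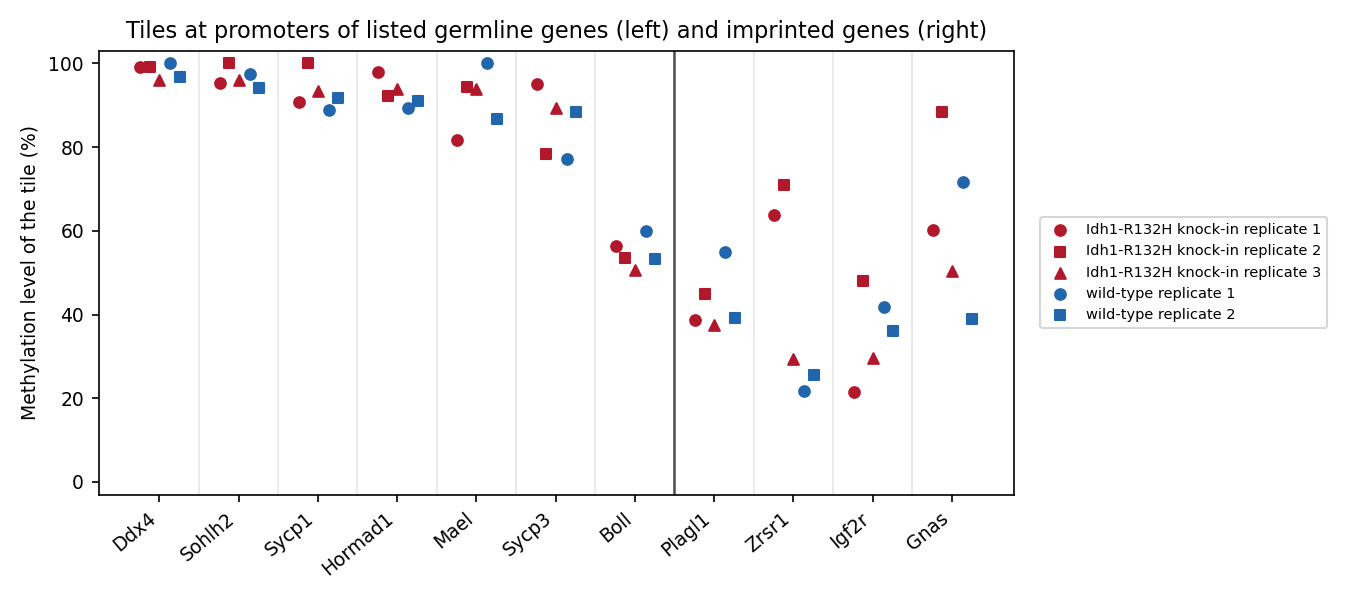
Methylation level (percent) of each library in the tiles at promoters of the 7 germline genes (left of the line) and 4 imprinted genes (right) that were at 20% or more; red symbols are the 3 knock-in and blue symbols the 2 wild-type libraries. Except for Boll the germline tiles lie at 77.0% or more in every library, and the imprinted tiles lie between 21.6% and 88.5%. The shared positions of the Gnas, Ddx4, Mael and Sycp1 tiles lie outside the placed promoter sequence, as do all but 1 at Sycp3.

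The tiles measured at most positions showed how stable a level could be over libraries. In the class of 20 to 40%, a tile 4168 bases before the start of Mast3, a microtubule-associated kinase, had 28.1%, 18.9% and 18.4% in knock-in cells and 25.7% and 24.9% in wild-type cells over 30 positions. A tile within Zfp316 had 26.1%, 42.4% and 18.1% in knock-in cells and 26.3% and 13.4% in wild-type cells over 23. In the class of 40 to 60%, a tile within Dact3, an antagonist of Wnt signalling, had 49.2%, 54.3% and 48.8% in knock-in cells and 53.4% and 48.0% in wild-type cells over 31. The kisspeptin receptor gene Kiss1r held a tile at 51.2%, 55.0% and 40.6% in knock-in cells and 44.1% and 47.8% in wild-type cells over 21. The genotypes overlapped in all 4.

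In the class of 60 to 80%, the tile at the promoter of Hoxa5, a homeobox gene of the HoxA cluster, had 39 positions at 85.9%, 75.0% and 87.5% in knock-in cells and 72.7% and 77.8% in wild-type cells. The tile at the start of Tmem267 and 3110070M22Rik had 35 at 68.5%, 64.3% and 64.7% in knock-in cells and 52.6% and 66.7% in wild-type cells. A tile 18591 bases past the start of Urm1 was at 65.3%, 66.6% and 71.2% in knock-in cells and 68.5% and 61.5% in wild-type cells. Overlap of the genotypes held here too. Of the tiles at 80 to 100%, the one at chr11:3093000-3093999 had 40 positions, 6775 to 88793 reads per library, and 87.1%, 83.6% and 81.6% in knock-in cells and 82.4% and 84.4% in wild-type cells. It was the only 1 of the 382 with over 5 times the median depth in every library. Tiles within Efl1, a GTPase of ribosome maturation, and within C77080 stayed within 87.2% to 90.9% and 92.8% to 96.0% over all 5 libraries.

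Of the 137 with a tested neighbour, 34 adjoined another of the 382, in 16 runs of 2 or 3 tiles. A run of 3 at chr19:7495000-7497999, within 2700081O15Rik, was at 87.7%, 98.98% and 94.98%, and a run of 2 at chr10:79439000-79440999 near Cnn2 at 97.3% and 96.2%. The other run of 3, at chr5:111847000-111849999, 87783 bases past the start of Pitpnb, was uneven, at 36.3%, 80.05% and 36.9%, and its first tile returns below among those whose genotypes did not overlap.

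The question the design puts is whether knock-in cells carry more or less methylation than wild-type cells. Over the 382 tiles the mean level was 70.6%, 72.7% and 68.4% in knock-in cells and 67.5% and 67.8% in wild-type cells. The knock-in mean was 70.6% ± 2.13 (SD, n = 3) and the wild-type mean 67.6% ± 0.157 (SD, n = 2), a difference of 2.95 points, and the genotypes did not overlap. The median tile differed by 1.79 points, against 0.08 points over all tested tiles. The knock-in mean was the higher one in 251 of 382 tiles (65.7%) and the lower one in 131. Over all tested tiles it was higher in 14298 (58.8%), lower in 7730 and equal in the rest. Among unmethylated dense tiles it was higher in 6603 and lower in 2944. A majority of higher tiles was thus not particular to the 382. Between the libraries high on chromosome X the difference over the 382 was 5.18 points (knock-in replicate 2 minus wild-type replicate 1). Between the others it was 1.78 points (knock-in replicates 1 and 3 minus wild-type replicate 2). Without knock-in replicate 2 it was 1.96 points. The part of depth and of these libraries in the result was not tested further.

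The difference was larger in the classes under 80% than above, in dense tiles and in CpG-poor tiles of the same levels. In the classes of 20 to 40%, 40 to 60%, 60 to 80% and 80 to 100% the means of the dense tiles differed by 4.55, 3.92, 4.79 and 1.48 points, and those of CpG-poor tiles by 7.32, 5.26, 4.66 and 1.12 points. The 10847 unmethylated dense tiles averaged 1.01% ± 0.126 (SD, n = 3) in knock-in cells and 0.745% ± 0.0842 (SD, n = 2) in wild-type cells. No test was made of these means, and none of how they differ between kinds of tile.

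Positions that the choice of the tiles had not used gave values of the same order. In 184 of the 382 tiles every library had at least 3 listed positions that were not shared by all 5. Over these the mean level was 66.6% ± 2.13 (SD, n = 3) in knock-in cells and 62.5% ± 1.30 (SD, n = 2) in wild-type cells, a difference of 4.07 points. Over the shared positions of the same 184 tiles the difference was 3.97 points. The positions not shared differ from library to library, and the part this has in the difference was not tested. Of the 184 tiles 160 were at 20% or more over these positions too.

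**Figure D4:**
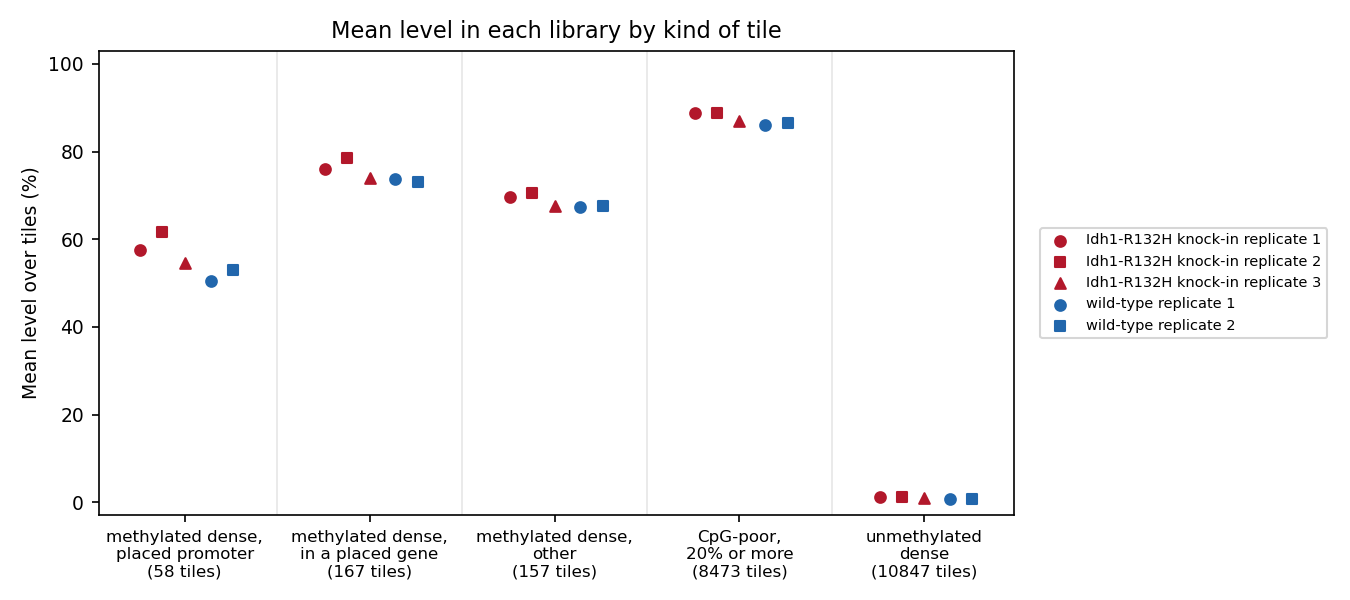
Mean level (percent) over the tiles of each kind in each library; red symbols are the 3 knock-in and blue symbols the 2 wild-type libraries. The promoter tiles show the widest spread, 54.5% to 61.8% in knock-in and 50.5% to 52.9% in wild-type cells, and unmethylated dense tiles lie near 1% in every library.

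Tiles at placed promoters averaged 57.5%, 61.8% and 54.5% in knock-in cells and 50.5% and 52.9% in wild-type cells. The difference was 6.23 points (57.9% ± 3.65, SD, n = 3, against 51.7% ± 1.69, SD, n = 2), beside 2.80 points for the 167 tiles within genes and 1.88 points for the 157 elsewhere. It depended on the minimum of reads and of shared positions. With a minimum of 20 reads per position 21 promoter tiles were left and the difference was 1.17 points, with at least 10 shared positions 22 were left and it was 2.53 points, and it was 11.3 points between the libraries high on chromosome X and 3.12 points between the others. Whether places differ in this was not tested.

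No single tile passed the test between genotypes. By the edgeR quasi-likelihood test, fitted over all 24319 tiles with Benjamini-Hochberg adjustment, 0 of the 382 had an adjusted p under 0.05, as did 0% of all tiles. Without adjustment, 3 had p under 0.05 and were higher in knock-in cells (0.785% of the 382, with 0.843% over all tiles) and 0 had it and were lower (0.748% over all tiles). limma on arcsine levels also gave 0 adjusted (0% over all tiles), with 15 higher and 9 lower unadjusted. These are 3.93% and 2.36% of the 382, against 2.66% and 1.22% of all tiles. The unadjusted shares were thus above those of all tiles by limma and near or below them by edgeR. By edgeR, 0.843% and 0.748% of all tiles had p under 0.05, less than that threshold gives where nothing differs. The 0 calls therefore do not show that the genotypes are alike. With a term for the high or low level of each library on chromosome X, added after seeing the data, edgeR again gave 0 adjusted (0% over all tiles). Without adjustment 3 were then higher (0.785%, with 0.88% over all tiles) and 1 lower (0.262%, with 0.514% over all tiles).

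The 3 tiles of lowest p were all higher in knock-in cells and all highly methylated. At chr7:87226000-87226999, 33736 bases past the start of Idh2, which encodes the mitochondrial isocitrate dehydrogenase, 3 positions were at 99%, 100% and 98.9% in knock-in cells and at 67.4% and 92.5% in wild-type cells (unadjusted p = 0.0296, adjusted p = 1). In the tile overlapping the promoter of 1700067K01Rik (chr8:86525000-86525999), 8 positions were at 98.9%, 100% and 96.2% in knock-in cells and at 85.4% and 85.6% in wild-type cells (unadjusted p = 0.0297, adjusted p = 1). None of the 8 lay in the promoter sequence, where no wild-type library had a listed position. Within Mtcl1, a gene of microtubule crosslinking, 6 positions were at 99.8%, 100% and 95% in knock-in cells and at 90.7% and 88.8% in wild-type cells (unadjusted p = 0.0415, adjusted p = 1). The genotypes did not overlap in any of them. Without wild-type replicate 1 the difference near Idh2 was 6.84 points, against 19.4 points with it. Over the other positions of that tile the levels were 87.9%, 79.8% and 82.6% in knock-in cells and 100% (2 positions) and 79.1% in wild-type cells, so there the order of the means was turned round. The next in order was a tile 59709 bases past the start of Ficd (chr5:114245000-114245999). It was at 100%, 100% and 98.0% in knock-in cells and 88.7% and 94.2% in wild-type cells. Over its other positions the genotypes overlapped, at 97.1%, 96.9% and 94.6% in knock-in cells and 95.2% and 95.7% in wild-type cells. They overlapped within Mtcl1 too, at 97.7%, 94.0% and 95.9% in knock-in cells and 96.5% in wild-type replicate 2. Wild-type replicate 1 had none there. At 1700067K01Rik they did not overlap, at 98.9%, 96.1% and 97.2% in knock-in cells and 87.5% (3 positions) and 95.3% in wild-type cells.

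Tiles without overlap of the genotypes were counted as a description. Every knock-in value exceeded every wild-type value in 59 of the 382 (15.4%, with 8.98% over all tiles) and was under every one in 17 (4.45%, with 3.61% over all tiles). With group means at least 10 points apart there were 29 above (7.59%, with 2.37% over all tiles) and 7 below (1.83%, with 0.621% over all tiles). The median level over all tested tiles was 1.25%, where a tile cannot be 10 points lower. In CpG-poor tiles at 20% or more the counts were 455 above (5.37% of 8473) and 128 below (1.51%). Of the 29 and 7 tiles, 13 and 6 kept at least 10 points when any 1 library was left out. With 3 against 2 libraries an exact permutation test cannot go below p = 0.1.

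The widest gap between the lowest knock-in and the highest wild-type library was in a tile within Palm3, a gene of the paralemmin family, at chr8:86550000-86550999. Its 4 positions were at 85.6%, 100% and 79.4% in knock-in cells and at 50.0% and 58.8% in wild-type cells, with 44 to 505 reads per library. Over the other positions of this tile the order was not seen, with 4.19%, 0.00% and 35.6% in knock-in cells (14, 3 and 23 positions) and 27.6% in wild-type replicate 2 (12 positions), and wild-type replicate 1 had none. The tile near Pitpnb (chr5:111847000-111847999), which has 18 positions and 399 to 2938 reads, was at 41.1%, 70.7% and 48.5% in knock-in cells and at 16.0% and 22.6% in wild-type cells. It is the best measured of the tiles named here for a difference, and its 34.1 points were 25.5 points without knock-in replicate 2. Over its other positions the levels were 23.3%, 23.6% and 16.2% in knock-in cells and 16.4% and 13.2% in wild-type cells, in the same direction of the means, but here the genotypes overlapped.

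Kdf1, a gene of keratinocyte differentiation, had at its promoter tile 72.5%, 82.1% and 63.1% in knock-in cells and 48.9% and 54.4% in wild-type cells on 3 positions. Over the other positions of the Kdf1 tile the levels were 13.7% and 28.9% in knock-in replicates 1 and 3 and 19.4% in wild-type replicate 2, so these overlapped, and the remaining libraries had none. Akt1s1, an inhibitor subunit of the mTORC1 kinase complex, held a tile at 60.3%, 81.4% and 50.1% in knock-in cells and 41.4% and 41.8% in wild-type cells on 3 positions. Of these, 1 was under 20% and 2 were at 80% or more. As an unweighted mean over positions the difference of 22.3 points was 1.37 points. Over the other positions of the Akt1s1 tile the order of the means was turned round and the genotypes overlapped. These positions were at 37.8%, 46.0% and 31.2% in knock-in cells and 76.2% (4 positions) and 11.3% in wild-type cells. A tile 19183 bases before the start of Ehbp1l1 was at 72.5%, 63.8% and 50.5% in knock-in cells and at 15.5% and 42.7% in wild-type cells, and the difference of 33.2 points was 19.6 points without wild-type replicate 1. Within Irf2bpl the levels were 21.1%, 55.4% and 18.2% in knock-in cells and 6.15% and 11.1% in wild-type cells, so knock-in replicate 2 carried much of the 22.9 points, which were 11 points without it. Within Pear1, a receptor of platelets, the levels were 49.6%, 38.3% and 34.2% in knock-in cells and 27.3% and 26.9% in wild-type cells on 10 positions. Of these, 7 were under 20% and 3 at 80% or more, and as an unweighted mean over positions the difference of 13.6 points was 3.58 points. The other positions of the Pear1 tile were at 82.5%, 89.1% and 69.9% in knock-in cells and 75.2% in wild-type replicate 2, so these overlapped. Wild-type replicate 1 had none. These 5 tiles had unadjusted edgeR p-values of 0.18 to 0.57.

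Of the 29 tiles above, 10 of the 58 at placed promoters were included, and 0 of the 7 below. That is 17.2% of the promoter tiles, with 2.37% over all tiles, and it fell to 2 of 21 with at least 20 reads per position and 1 of 22 with at least 10 shared positions. Over positions not shared by all libraries, 4 of 30 promoter tiles were higher in this way and 2 were lower. Besides 1700067K01Rik, Kdf1 and Zrsr1 with Commd1 these are the tiles at Septin9, Slc22a3, Slc44a3, Papolb, Foxa3, Slc6a16 and Apbb1, named after their values were seen. Slc44a3, a gene of the choline transporter family, had 68.9%, 72.0% and 51.0% in knock-in cells and 25.5% and 45.1% in wild-type cells. At Septin9, a gene of the septin cytoskeleton, the tile was at 78.5%, 76.4% and 57.0% in knock-in cells and at 55.8% and 44.7% in wild-type cells. In both tiles, and in those at 1700067K01Rik, Slc22a3 and Slc6a16, the promoter sequence held none of the shared positions. Over each library's own positions in it Septin9 was at 6.03%, 9.16% and 2.996% in knock-in cells and 10% and 4.67% in wild-type cells, and Slc44a3 at 15.8%, 0.00% and 8.89% in knock-in cells and 50% (1 position) and 8.27% in wild-type cells. At Apbb1 and Foxa3 the promoter sequence itself was near 0% (at most 4.17% in any library), and the methylated positions lay elsewhere in the tile. The Papolb promoter sequence, with 10 shared positions, was at 48.9%, 66.7% and 38.6% in knock-in cells. In wild-type cells it was at 40.1% and 35.0%, so over the sequence the genotypes overlapped. The 17.2% thus describes tiles that overlap promoters and not promoter sequences.

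Lower in knock-in cells was a tile 15424 bases before the start of Tmem234 (chr4:129262000-129262999), with 2.67%, 0.00% and 7.73% in knock-in cells and 52.3% and 26.2% in wild-type cells, on 3 positions and 39 to 207 reads. Over its other positions every library was between 0.00% and 5.3%. On chromosome 11, 2 tiles near Cacnb1, which encodes a subunit of voltage-gated calcium channels, were lower. The one at chr11:97847000-97847999 had 17.9%, 4.76% and 26.4% in knock-in cells and 45.5% and 41.4% in wild-type cells, and the one within the gene had 60.3%, 71.4% and 68.1% in knock-in cells and 92.6% and 80.8% in wild-type cells. A tile 7784 bases past the start of 1810021B22Rik was at 51.8%, 50.9% and 50.4% in knock-in cells and at 66.4% and 72.2% in wild-type cells. These 4 tiles had 3 to 5 shared positions each. Over the other positions of the tiles near Cacnb1 and 1810021B22Rik, wild-type replicate 1 had none. The knock-in values there lay on both sides of wild-type replicate 2. They were 2.12%, 8.22% and 0.04% against 1.07% at chr11:97847000-97847999, and 89.0%, 92.7% and 71.9% against 78.6% within Cacnb1. Near 1810021B22Rik they were 24.0%, 76.9% and 30.5% against 45.0%.

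**Figure D5:**
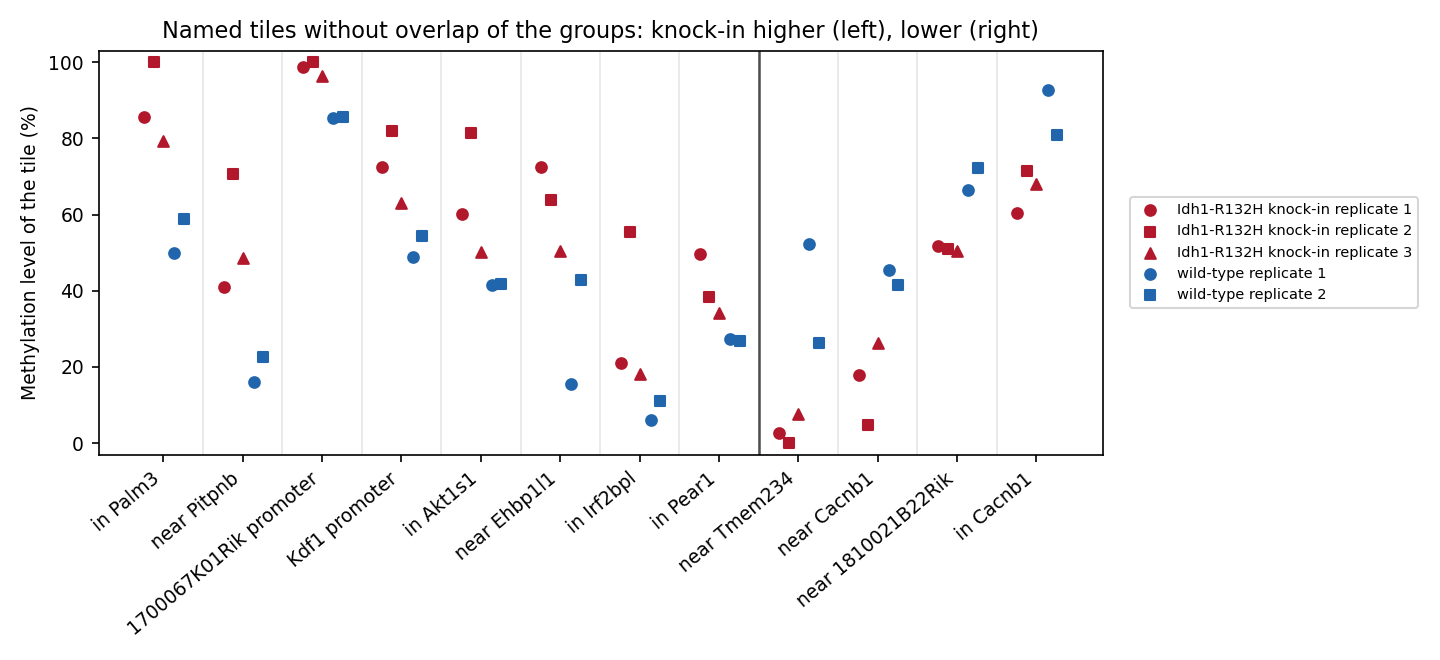
Methylation level (percent) of each library in the 12 named tiles whose genotypes do not overlap and whose means differ by at least 10 points, 8 higher in knock-in cells (left of the line) and 4 lower (right); red symbols are knock-in, blue symbols wild-type libraries. Knock-in replicate 2 (red square) is the highest library in 6 of the 8 tiles on the left.

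Positions that the choice had not used were available in every library for 17 of the 29 tiles above and 1 of the 7 below. Of the 17, 10 had the higher mean in knock-in cells over these positions, 5 of them by at least 10 points. For comparison, over shared positions the knock-in mean was the higher one in 65.7% of the 382 tiles. Over all tested tiles, some with equal means, it was higher in 14298 and lower in 7730. The 1 tile below, near Tmem234, was lower over its unused positions too, by 4.04 points.

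Spread between libraries was wide in tiles of intermediate level whatever the genotype. The highest and the lowest library were at least 30 points apart in 87 of the 382 (22.8%). By class this held for 31.9% of tiles at 20 to 40%, 51.0% at 40 to 60%, 48.9% at 60 to 80% and 4.66% at 80 to 100%, and for 52.1%, 58.1%, 44.7% and 4.47% of CpG-poor tiles of those classes. The widest range was within Zfp423, a zinc finger transcription factor, at 20.4%, 11.8% and 26.4% in knock-in cells and 90.7% and 34.2% in wild-type cells on 3 positions. There 1 wild-type library stood far above the other 4. In the tile overlapping the promoter of Lhcgr, the luteinizing hormone receptor, the shared positions lay outside the promoter sequence. That tile was at 55.0%, 100% and 75.0% in knock-in cells and 21.5% and 56.5% in wild-type cells. A tile within Ssbp4 was at 72.1%, 15.0% and 62.3% in knock-in cells and 52.9% and 86.8% in wild-type cells. Both of these ran over more than 70 points with overlapping genotypes.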

How the data were processed

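Per the labels' protocols, MspI fragments were size-selected, treated with bisulfite and sequenced. CASAVA 1.7, Bismark and the mm9 build are credited to the submitters' processing notes. Each table deposited by the authors gives, for every CpG position and strand of a library, the read count (coverage) and the percent of C and of T, for positions with a count of at least 10. Methylated and unmethylated reads were computed as coverage times percent, and both came out whole at 100% of positions. Of 2371245 listed positions, 280635 autosomal ones were shared by all 5 libraries. Tiles were tested with edgeR 4.0.16 (library terms, 3 residual degrees of freedom) and, as an alternative, limma 3.58.1, in R 4.3.3. Only edgeR was tested on simulated data. The rest was done in Python 3.11.15 with scipy 1.17.1, pandas 2.3.3, numpy 2.4.6 and matplotlib 3.10.9. A promoter was placed where the spacing of 5 neighbouring CpGs matched at 1 place, at least 8 of its CpGs were listed and 0 listed positions fell off a CpG, or, at the offset of its neighbours, with at least 4. Distances to genes use these starts. Replicate numbers follow accession order and pair nothing. The tiles, gene lists, motifs and tests were chosen with earlier results of these data known. Tiles were named by class (most shared positions), gap between genotypes, lowest p, longest runs, widest range, closeness to 20% and membership of a listed gene. Without molecular identifiers, PCR copies were counted as separate reads, so intervals cover counting error only.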

Additional observations from a re-analysis of the deposited data

How the results depend on the processing

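edgeR called 0 of the 382 tiles under each setting that gave a fit, as it did with a term for the level of each library on chromosome X, a fit added after seeing the data, and limma called 0 on arcsine levels, on log2 ratios with 1 read added and on centred levels. The mean difference of 2.95 points stayed positive in every alternative and was 5.18 points within the libraries high on chromosome X. Leaving out each library in turn gave 1.96 to 4.43 points, 41 to 72 tiles without overlap and at least 10 points higher in knock-in cells (29 with all libraries), 11 to 34 lower (7 with all), and 378 to 387 tiles in the set. With fewer libraries fewer values have to be in order. With at least 20 reads per position the set held 122 tiles, 8 of them higher and 3 lower in this sense. With at least 10 shared positions it held 143, 8 higher and 1 lower. With 20 or more listed positions it held 993, 61 higher and 12 lower, and with 40 or more 175, 16 higher and 2 lower. A level of 10% or more gave 44 higher, and a level of 30% or more 4 lower. With reads thinned to 10 per position 4 were lower. Fewer or more tiles in the set account for part of these counts; beyond that the cause was not tested. Of 15 named tiles without overlap and at least 10 points apart, 13 kept their direction in all alternatives run, and of 40 other named tiles 13 did. Where the genotypes do not overlap, leaving out a library or dividing the libraries by chromosome X level cannot turn the direction. These counts therefore do not compare how stable the tiles are. Depth limits the result most in wild-type replicate 1, whose median tile had 134 reads. No paired analysis was possible because the replicate numbers follow accession order and pair no libraries.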
